A study of Caenorhabditis elegans with 2 samples.

Results

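The small RNA and Argonaute pathway genes of Caenorhabditis elegans were examined for peaks of LIN-35, the worm's pocket protein. The set was a list of 36 genes given by name, with no peak value in the rule, of 19985 protein-coding genes in the WBcel235 annotation. The promoter window of a gene began 1000 bp before each transcript start and ended 300 bp after it. A peak with its summit there is called a promoter peak, and the one of highest signal was the gene's best peak. ChIP-seq had been done on whole mixed-sex young adults of strain YL468, in 2 biological replicates of a single group with no second condition. YL468 carries unc-119(ed3) and the transgene vrIs93, in which the promoter of mex-5, a germline gene, drives LIN-35:GFP:FLAG beside an unc-119(+) rescue. The labels name lin-35 as the antibody and eGFP-lin-35 as the target, so the epitope was not settled, and germline and somatic chromatin cannot be told apart in whole animals. The authors deposited a peak list for each replicate, a pooled list and a thresholded list of 550 peaks, without read counts, so depth is unknown.

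Small RNAs guide Argonaute proteins to matching transcripts, which are then cut, destabilised or silenced at the chromatin. In the worm a primary small RNA, made by Dicer or transcribed as a piRNA, recruits an RNA-dependent RNA polymerase that makes abundant secondary small RNAs, and these load a large family of worm-specific Argonautes. Much of this machinery works in the germ line, in granules beside the nuclear pores, where it silences transposons and carries silencing to the offspring. LIN-35 acts with E2F-DP proteins and within the DREAM complex, a repressor of cell cycle genes, and lin-35 mutants are known for a heightened response to RNA interference.

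The thresholded list held a promoter peak for 4 of the 36 genes, rde-2, nrde-2, mut-15 and ekl-1, or 11.1%. Of all protein-coding genes 2.77% had one. All 4 peaks lay in a promoter shared with a second gene whose start was closer to the summit. When each peak was given only to the protein-coding gene with the nearest start, 0 of the 36 genes kept a thresholded peak, against 1.93% of all genes. With a window of 500 bp upstream to 100 bp downstream, ekl-1 and mut-15 remained, 2 genes, against 2.27% of all genes. Below the threshold came hrde-1, rde-8 and ego-1, which brought the count to 7 genes (19.4%) within the 1000 highest pooled peaks, where 4.51% of all genes had a promoter peak. Within the 3000 highest the count was 11 genes (30.6%), against 9.56% of all genes. These shares are descriptions and were not tested, because the genes were chosen with earlier results of these data known.

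**Figure D1:**
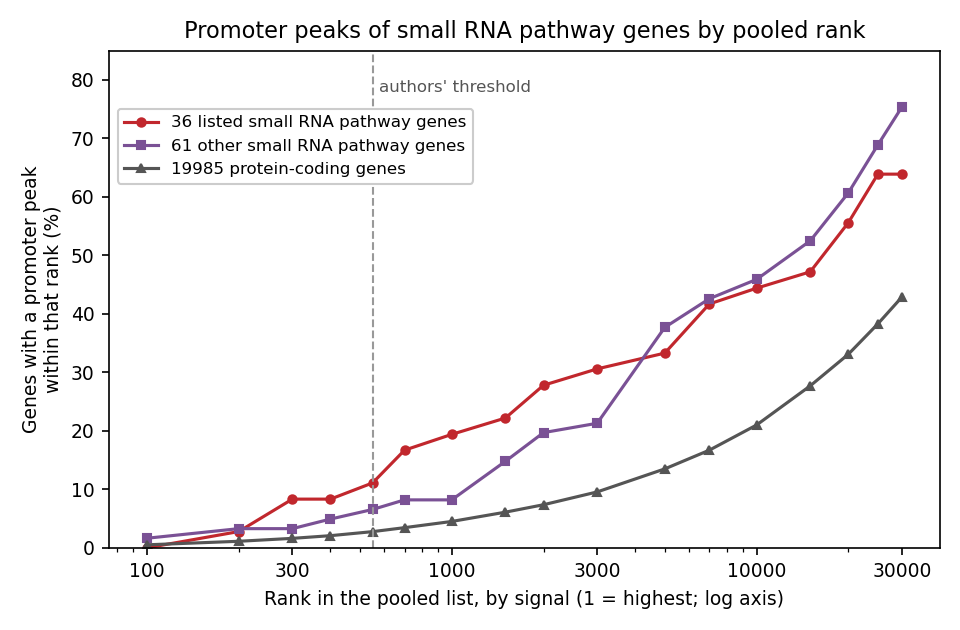
Share of genes with a promoter peak (vertical axis, %) within each rank of the pooled list (horizontal axis, log scale, 1 = highest signal), for the 36 listed genes (red circles), 61 other small RNA pathway genes (purple squares) and 19985 protein-coding genes (grey triangles). At rank 1000 the listed genes stood at 19.4%, the other pathway genes at 8.2% and all genes at 4.51%; the dashed line marks the 550 peaks of the thresholded list.

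Summit sequences are shown for 5 of the 11 genes, to let some of the strongest promoters be read beside one that holds an E2F string. They are from the RefSeq genome of WBcel235 (ce11), forward strand, 5′ to 3′, and reach up to 60 bp to either side of the pooled summit, stopping short of annotated UTRs. Capitals mark strings found on either strand. The E2F strings were TTTCCCGC, TTTCGCGC, TTTGCCGC and TTTGGCGC. The strings resembling the cell cycle homology region (CHR), the element read by the DREAM subunit LIN-54, were TTCGAA and TTTGAA. A further string, TGGCGC, which lies within TTTGGCGC, was picked after these sequences had been seen. The nrde-2 window is II:10248531-10248651, that of mut-15 V:15002280-15002400, that of hrde-1 III:4176294-4176414, that of rde-8 IV:7103423-7103491 and that of rde-11 IV:13104799-13104919. All 5 lie between genes.
nrde-2: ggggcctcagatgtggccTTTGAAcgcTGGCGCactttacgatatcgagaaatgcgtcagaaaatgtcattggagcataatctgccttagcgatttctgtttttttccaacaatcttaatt
mut-15: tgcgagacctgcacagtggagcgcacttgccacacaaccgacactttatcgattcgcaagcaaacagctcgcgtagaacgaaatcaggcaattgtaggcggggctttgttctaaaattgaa
hrde-1: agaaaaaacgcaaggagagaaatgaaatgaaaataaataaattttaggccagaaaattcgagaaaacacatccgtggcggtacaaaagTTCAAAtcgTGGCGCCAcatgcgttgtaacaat
rde-8: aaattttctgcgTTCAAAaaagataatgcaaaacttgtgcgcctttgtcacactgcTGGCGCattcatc
rde-11: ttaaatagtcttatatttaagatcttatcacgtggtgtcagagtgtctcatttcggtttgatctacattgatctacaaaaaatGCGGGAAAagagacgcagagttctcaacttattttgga

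The windows of nrde-2, hrde-1 and rde-8 above each hold a CHR-like string and TGGCGC, which in hrde-1 is present on both strands at overlapping positions. The mut-15 window holds none of the strings, and that of rde-11 holds an E2F string, TTTCCCGC on the reverse strand, and no other. Within 100 bp of the summit an E2F string was present for 2 of the 23 genes with a pooled promoter peak, rde-11 and ergo-1, or 8.7%. The share was 5.33% of the 7443 best promoter peaks of all protein-coding genes and 16.4% of the 403 thresholded peaks in a promoter window. A CHR-like string was present for 18 of the 23 (78.3%), and in 57.4% of all best promoter peaks and 65% of thresholded ones. Among the 11 genes within rank 3000 the CHR-like count was 7 (63.6%), against 57.3% of best promoter peaks within that rank. TGGCGC was present for 8 of the 23 genes (34.8%), against 7.03% of all best promoter peaks and 24.3% of thresholded ones. Those 8 were rde-2, nrde-2, ekl-1, hrde-1, rde-8, ego-1, drh-3 and rde-12. Since TGGCGC was picked from these same sequences, its count here supports nothing. A match of letters is no evidence that a factor binds there.

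The Mutator class genes encode proteins that gather in foci beside germ granules and are needed to make and amplify secondary small RNAs. Of the 6 listed, 4 had a pooled promoter peak and 2, rde-2 and mut-15, a thresholded one, where 42.9% and 2.77% of all genes had them. Counts in groups this small are descriptions only. The peak of rde-2, whose product works with the exonuclease MUT-7, was the strongest promoter peak of all 36 genes at rank 162 (I:7283686-7284041). Its signal was 46.6 in the pooled list, 40.4 in replicate 1 at rank 121 and 13.4 in replicate 2 at rank 238. Signals are the authors' values on scales that differ between lists, so ranks within each list are given beside them and sizes are not compared between replicates. The summit lay 940 bp upstream of rde-2 and 102 bp upstream of pfd-6, a prefoldin subunit gene on the same strand whose start is 838 bp away from that of rde-2. In replicate 2 the summit of that peak was 1025 bp upstream, just outside the window, so the best promoter peak of rde-2 in that list was another, at rank 787 with signal 8.69. A weaker pooled peak lay 108 bp downstream of the rde-2 start, at rank 2433 with signal 12.9.

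The mut-15 peak (V:15002162-15002517) ranked 281 in the pooled list with a signal of 34.6. It ranked 335 in replicate 1 with a signal of 23.7 and 413 in replicate 2 with 10.9. mut-15 was thus the only 1 of the 36 genes whose promoter peak ranked within 550 in both replicates by this window. The summit was 203 bp upstream of mut-15 and 117 bp upstream of fib-1, the fibrillarin gene on the opposite strand, with 320 bp between the starts. mut-2, which encodes the ribonucleotidyltransferase that adds UG tails to target RNAs, had its best peak at rank 1492 (I:6358333-6358688) with a pooled signal of 15.7, shared with K04F10.3. Its replicate ranks were 3069 (signal 9.47) and 804 (signal 8.62), so the order of the lists was not alike for it. The exonuclease gene mut-7 came far lower, at rank 14800 with signal 6.25, in a promoter shared with eif-2Balpha. No list held a promoter peak of mut-14, a helicase gene, or of mut-16, which encodes the scaffold of the foci.

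Every one of the 5 genes of the RNA-dependent RNA polymerases and their partners had a pooled promoter peak, at ranks from 456 to 6308, against 42.9% of all genes. ekl-1, a Tudor-domain partner of the polymerase complex, had the listed genes' promoter peak nearest the threshold on its inner side. The peak ranked 456 (I:7094900-7095255) with a pooled signal of 27.1. Replicate 1 placed it at rank 484 with a signal of 19.1 and replicate 2 at rank 1364 with 7.04. The last thresholded peak and the first outside both had a signal of 24.8. The first promoter peak of a listed gene outside was that of hrde-1, at 23.8. The ekl-1 summit was 408 bp from its own start and 355 bp from that of prpf-4, a splicing factor gene read on the opposite strand. ego-1, the germline polymerase, followed at rank 732 (I:7656358-7656713) with a pooled signal of 21.7, and with 14.9 at rank 888 in replicate 1 and 9.07 at rank 694 in replicate 2. Among the 7 genes within rank 1000, ego-1 was the 1 whose own start was the nearest, 198 bp from the summit, and no other protein-coding gene shared the peak, only the piRNA locus 21ur-14981. rrf-1, a paralog active mainly in the soma that lies just downstream of ego-1, ranked 6308 with a signal of 9.05, its summit 176 bp beyond the end of ego-1. rrf-3, the polymerase of the 26G small RNAs, ranked 4554 with a signal of 10.2 at its own start, in a promoter shared with emb-27. The helicase gene drh-3 ranked 5303 with a signal of 9.62, 26 bp upstream of its start. The peaks of rrf-1 and drh-3 overlapped a peak of replicate 1 only, and that of rrf-3 a peak of replicate 2 only.

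**Figure D2:**
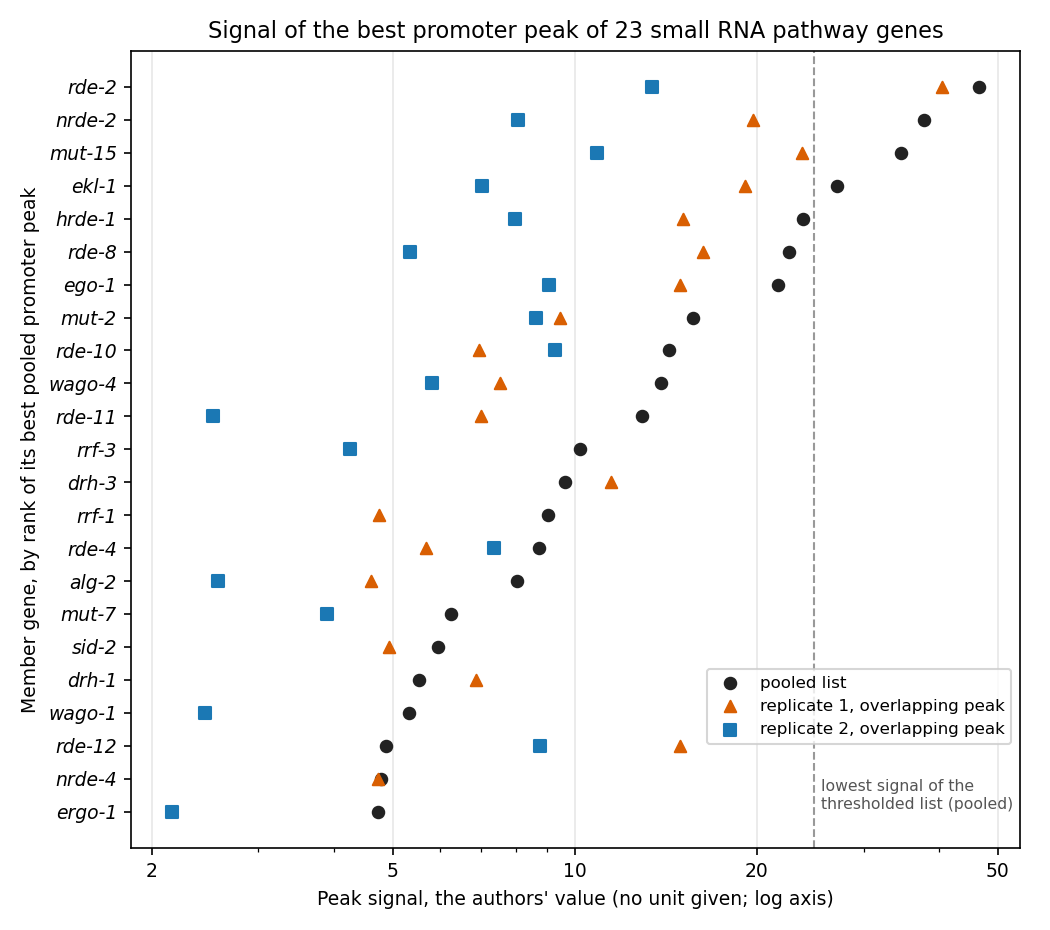
Signal of the best promoter peak (horizontal axis, log scale, the authors' value with no unit given) of the 23 genes with a pooled promoter peak, ordered by pooled rank, in the pooled list (black circles) and of the overlapping peak in replicate 1 (orange triangles) and replicate 2 (blue squares), with no marker where no peak overlapped. rde-2, nrde-2, mut-15 and ekl-1 lie above the dashed line at the lowest thresholded signal of 24.8; distances between marker colours are not differences in binding, since each list has its own scale.

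The nuclear RNAi genes act where small RNAs halt transcription and mark chromatin. nrde-2, a conserved nuclear factor recruited to nascent transcripts, ranked 233 in the pooled list (II:10248413-10248768) with a signal of 37.8. Replicate 1 gave 19.7 at rank 452. In replicate 2 the highest overlapping peak gave 8.05 at rank 951, but its summit was 710 bp upstream of nrde-2. A second replicate 2 peak, 925 bp upstream and so closer to the pooled summit, ranked 7316 with a signal of 3.62. The pooled summit lay 953 bp upstream of nrde-2, near the far edge of the window. It was 400 bp upstream of atad-3, a mitochondrial ATPase gene on the opposite strand. nrde-4 ranked 23487 with a signal of 4.78. nrde-1 had no pooled promoter peak, and its best in a replicate was at rank 23417 of replicate 1.

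Of the 12 Argonaute genes 5 had a pooled promoter peak, a share close to the 42.9% of all genes, and 0 a thresholded one, against 2.77%. hrde-1, the germline nuclear Argonaute needed for inherited silencing, ranked highest of them at 616 (III:4176176-4176531) with a pooled signal of 23.8. Replicate 1 gave 15.1 at rank 855 and replicate 2 gave 7.97 at rank 978. The summit lay 195 bp upstream of hrde-1 and 86 bp upstream of C16C10.13, with 281 bp between the 2 starts. wago-4, an Argonaute of the germ granules, ranked 1994 (II:12919320-12919675) with signals of 13.9 pooled, 7.52 at rank 5793 in replicate 1 and 5.82 at rank 2353 in replicate 2. Its summit was 53 bp upstream of its own start, nearer than that of F58G1.2, which shared the peak. The other 3 ranked lower. alg-2, a microRNA Argonaute gene, was at rank 8471 (signal 8.04) and wago-1 at rank 19925 (5.32). ergo-1, the Argonaute gene of the 26G pathway, was at rank 23870 (4.73).

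The other 7 Argonaute genes had no pooled promoter peak. Of these, alg-1, the second microRNA Argonaute gene, had a promoter peak in replicate 1 at rank 27717, and prg-1, the worm Piwi gene, in replicate 2 at rank 16521. csr-1, an essential germline Argonaute gene, had a peak in each replicate at places that did not coincide. Distances are from the nearest of its 3 transcript starts, which lies inside the gene. The replicate 1 peak was downstream of that start at rank 4819. The replicate 2 peak was 387 bp upstream of it at rank 1072, still inside the gene. The nearest pooled summit was 408 bp downstream of the same start, outside the window. No list held a promoter peak for alg-3 or alg-4, paralogs used in spermatogenesis, for nrde-3, the somatic nuclear Argonaute gene, or for rde-1, the primary Argonaute gene of exogenous RNAi. How reads matching near-identical sequences were handled is not given in the sources used here. How alike the promoters of alg-1 and alg-2 or of alg-3 and alg-4 are was not examined, so their values may be uncertain on that account.

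The genes that handle target RNA in exogenous RNAi all had a pooled promoter peak, and 3 of the 4 lay within rank 3000, against 42.9% and 9.56% of all genes. rde-8, which encodes an endoribonuclease that cuts targeted messages, ranked 680 (IV:7103305-7103660) with a signal of 22.6. Replicate 1 gave 16.3 at rank 724, while replicate 2 gave 5.34 at rank 2937. The summit was 9 bp from the start of ZC477.3 on the opposite strand and 222 bp upstream of rde-8. rde-10 ranked 1886 (I:3546841-3547196) with a signal of 14.3, 52 bp upstream of its own start, and shared the peak with rnp-6. It stood at rank 7101 in replicate 1 (6.94) and 651 in replicate 2 (9.29), the reverse of the order for rde-8. rde-11, the partner of rde-10 in one complex, ranked 2409 (IV:13104681-13105036) with a signal of 12.9 in a promoter of its own, 341 bp upstream of its start, and ranked 6964 in replicate 1 (6.99) and 13544 in replicate 2 (2.53).

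The helicase gene rde-12 stood at the edge of the rule. Its best pooled promoter peak ranked 22811 with a signal of 4.88 at 814 bp upstream. A thresholded peak at rank 487 (V:13664181-13664536) with signal 26.3 had its summit 1030 bp upstream and was therefore not counted, although no protein-coding start was nearer to it than that of rde-12. The replicate peaks there ranked 884 (14.9) and 768 (8.77). With a window of 2000 bp upstream to 500 bp downstream rde-12 joined the thresholded genes, which made 5 of 36, against 3.44% of all genes.

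Of the 3 genes of Dicer and its partners, the start of the pathway, 2 had a pooled promoter peak, against 42.9% of all genes. Within rank 3000 the count was 0, against 9.56%. dcr-1, the Dicer gene, had no pooled promoter peak and one at rank 7476 (6.8) in replicate 1. rde-4, a double-stranded RNA binding partner, ranked 6857 with a pooled signal of 8.74, in a promoter shared with cox-14. The overlapping peak of replicate 1 ranked 11222 (5.69). The highest overlapping peak of replicate 2 ranked 1199 (7.36), with its summit 93 bp downstream of the start, where the pooled summit was 94 bp upstream. A second replicate 2 peak, 109 bp upstream, ranked 7182 (3.65). The helicase gene drh-1 ranked 18460 with a signal of 5.54. Of the transport genes, sid-2, which takes up double-stranded RNA from the gut, ranked 16345 with a signal of 5.94, the summit lying in a coding exon of dyf-2. sid-1, the channel gene, had only a replicate 1 peak at rank 25396, as did henn-1, the small RNA methyltransferase gene, at rank 23225.

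In the whole pooled list of 30000 peaks, 23 of the 36 genes had a promoter peak (63.9%), against 42.9% of all protein-coding genes. By the authors' notes that list mixes peaks with background. The median rank of the 23 was 4554 and their median signal 10.2, against 10362 and 7.38 for the 8580 protein-coding genes with a pooled promoter peak. Replicate 1 held a promoter peak for 26 genes (72.2%), against 42.1% of all genes, and replicate 2, whose list is shorter at 18226 peaks, for 20 (55.6%), against 29.9%. At least 1 replicate list held one for 30 of the genes, both held one for 16, and 6 had none in any list. No matching shares of all genes are given for these counts, so they are descriptions only.

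The best pooled peak overlapped a peak of both replicates for 14 of the 36 genes (38.9%), against 13.3% of all protein-coding genes, with a shared length of at least 1 bp. rde-12 is among the 14 by that rule, although the replicate peaks that overlap its weak best peak have summits 1028 and 953 bp upstream and are those already given for the thresholded peak beside it. All 11 within rank 3000 were among them, where 76.8% of the 1911 protein-coding genes within that rank had such an overlap. Of the remaining 9 genes, 5 overlapped replicate 1 only and 4 replicate 2 only. Among the 550 highest peaks of its own list, replicate 1 held promoter peaks of rde-2, nrde-2, mut-15 and ekl-1, 4 genes, against 2.71% of all genes. Replicate 2 held 1, that of mut-15, against 2.28%. The 1000 highest of both lists held a promoter peak for 5 genes (13.9%), rde-2, nrde-2, mut-15, hrde-1 and ego-1, against 2.05% of all genes. These need not be the same peak in both lists. In replicate 2 the summit was 710 bp upstream for nrde-2 and 105 bp downstream for rde-2.

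**Figure D3:**
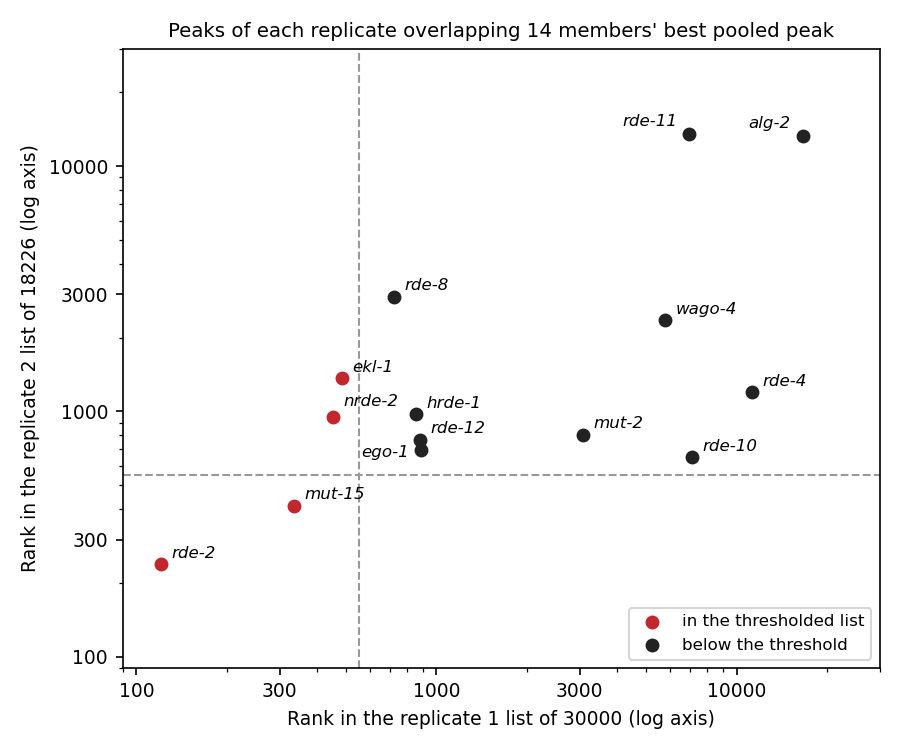
Rank of the overlapping peak in replicate 1 (horizontal axis) and replicate 2 (vertical axis), both log scales with 1 the highest, for the 14 genes whose best pooled peak overlapped a peak of both; red points are in the thresholded list and the dashed lines mark rank 550. rde-2 and mut-15 lie below both lines, while nrde-2 and ekl-1 pass rank 550 in replicate 1 only, at 452 and 484 against 951 and 1364. Where several replicate peaks overlapped, the highest is plotted. For nrde-2, rde-4 and alg-2 a replicate 2 peak closer to the pooled summit ranked lower, at 7316, 7182 and 14775. The rde-12 point stands for replicate peaks that also overlap the stronger peak outside its window.

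Shared promoters were common in the set. The best pooled peak also lay in the promoter window of another protein-coding gene for 14 of the 23 genes (60.9%), against 27.8% of all protein-coding genes with a pooled promoter peak. The partner was on the opposite strand in 13 of the 14 pairs, with a median of 320 bp between the starts, and pfd-6 was the exception. Within rank 1000 the share was 6 of 7, against 56.8% of all genes within that rank. The gene's own start was the nearest to the summit for 14 of the 23 (60.9%), against 85.8% of all such genes, and within rank 1000 for 1 of 7, against 71.1%. A peak between a pair of starts cannot be assigned to either gene from these lists. By annotation 19 of the 23 summits (82.6%) lay between genes, against 53% of all genes with a pooled promoter peak. Within 500 bp upstream of the nearest transcript start lay 20 (87%), against 51.2%. For ergo-1 and alg-2, which are among the 20, that start is an internal one and the summit lies inside the gene.

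**Figure D4:**
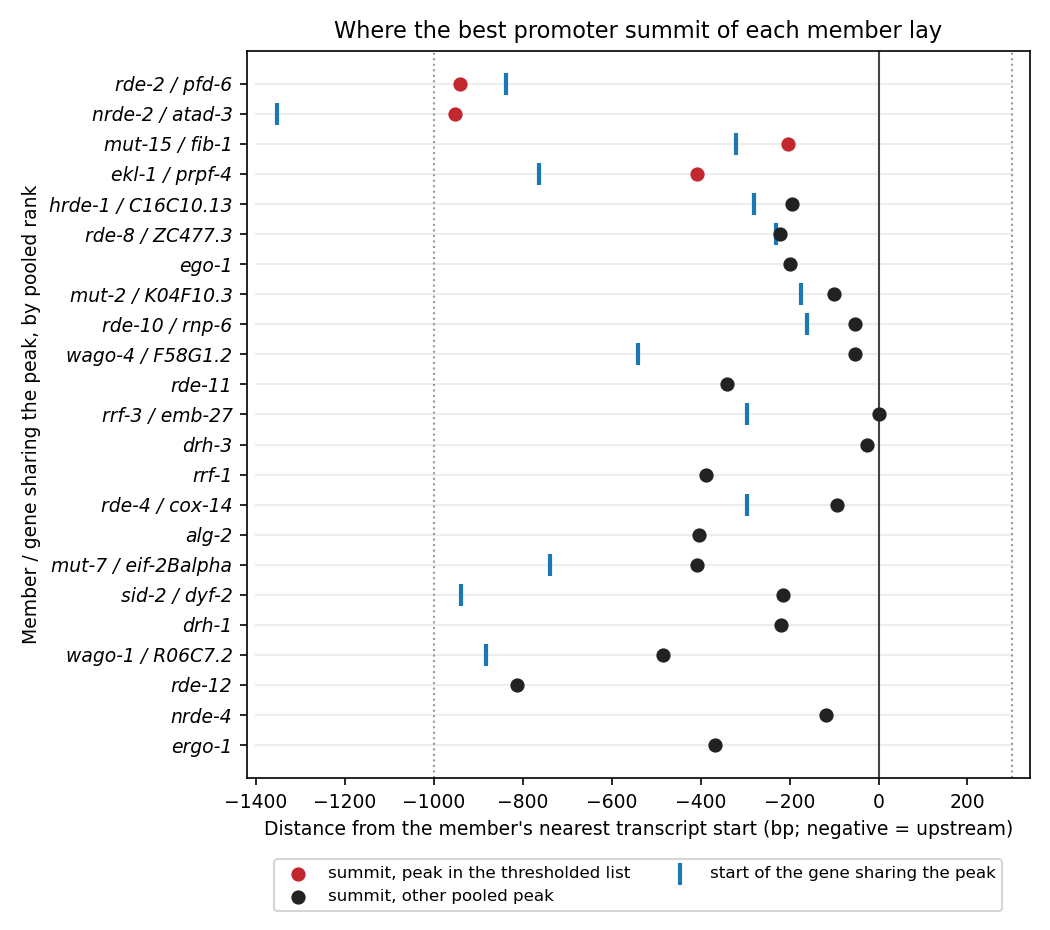
Position of the best pooled summit (points) relative to the nearest transcript start of each of 23 genes (horizontal axis, bp, negative is upstream), ordered by pooled rank, with the start of the gene that shares the peak as a blue bar; red points are in the thresholded list and dotted lines bound the window. The summits of rde-2 and nrde-2 lie 940 and 953 bp upstream, near the window's edge, while those of mut-15, hrde-1, mut-2 and rde-4 lie between close starts.

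The genes were not spread evenly over the chromosomes, on which peaks are also unevenly spread. Chromosome I held 10 of the 36 (27.8%) and 14.4% of protein-coding genes, and 8 of its 10 had a pooled promoter peak, against 51% of all protein-coding genes on it. Chromosome III held 8 (22.2%) and 13.2% of protein-coding genes, and 4 of the 8 had a pooled promoter peak, against 53.6% of all on it. The share of genes with a thresholded promoter peak was 4.07% on I and 5% on III, against 0.33% on X. The 2 listed genes on X, alg-1 and nrde-3, had no pooled promoter peak, where 34.7% of all protein-coding genes on it had one. The part of chromosome in the counts was not tested.

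Outside the promoter windows, 6 of the genes had 11 further pooled peaks within rank 3000, inside the gene or up to 2000 bp upstream. These 6 genes were 16.7% of the 36, against 7.89% of all protein-coding genes, and the 3 with a thresholded peak there were 8.33%, against 1.16%. The listed genes are longer, with a median length of 4117.5 bp against 2026 bp, and the part of length in these shares was not tested. The strongest was at prg-1, at rank 148 (I:7585173-7585528) with signals of 49.3 pooled, 37.2 in replicate 1 and 11.8 in replicate 2. Its summit lay in the prg-1 3′ UTR, 22 bp from the end of the gene and 3016 bp from its start, in no promoter window. This peak ranked above every promoter peak of the 36 genes. csr-1 likewise had a thresholded peak in its 3′ UTR, at rank 467 (IV:7961881-7962236) with signals of 26.8 pooled, 17 and 9.37, which is 216 bp downstream of the start of the neighbouring gene frpr-10. hrde-1 had a peak in an intron 1981 bp downstream of its start, at rank 567 with a pooled signal of 24.5, slightly above its promoter peak. The highest replicate peaks overlapping it ranked 1081 and 113. In replicate 1 that summit was 1708 bp downstream, where another pooled peak ranked 5500. A closer replicate 1 peak, 1948 bp downstream, ranked 1283 (12.9). The third thresholded peak was that of rde-12 described above.

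For a wider view, 61 other protein-coding genes of the small RNA pathways were counted, of 68 symbols listed. A thresholded promoter peak was found for 4 (6.56%), vig-1, simr-1, pash-1 and alg-5, against 2.77% of all genes. vig-1, a gene of the RISC-associated VIG protein, ranked 52 with a pooled signal of 94.4, above all 36 listed genes, and 64 and 49 in the replicates. simr-1, a Tudor-domain gene of the piRNA pathway, ranked 164 (46.3) in a promoter shared with C06A5.3. pash-1, the partner of Drosha in microRNA processing, ranked 351 (31.3). alg-5, an Argonaute gene, ranked 401 (29.2) in a promoter shared with the histone genes his-67 and his-68, and stood at 148 in replicate 2 but 13356 in replicate 1. xrn-2, an exonuclease gene, was just outside at rank 603 (24). Within rank 1000 the wider list had 5 genes (8.2%), against 4.51% of all genes, and within rank 3000 it had 13 (21.3%), against 9.56%. Both shares of the wider list were below those of the 36 genes. In the whole pooled list it had 46 (75.4%), a share above the 63.9% of the 36 genes and the 42.9% of all genes.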

How the data were processed

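ChIP-seq peak lists on ce11 were used, 4 in all: replicate 1, replicate 2, pooled and thresholded (550 peaks). Peak signal was taken from the deposited lists as the authors' own value, with its scaling not stated. Replicate and pooled lists came from alignments set against a control library, per the notes deposited with them, and that library was not analysed here. Not given in the sources used here: aligner, peak caller, versions and threshold. The files hold no read counts, so no depth or interval is given. The 550 thresholded peaks are the 550 of highest pooled signal. The 4 lists on ce10 were not used.

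Peaks were ranked by signal and set against the WBcel235 annotation (Ensembl release 115) and the RefSeq genome of that build, with 1-based coordinates. A gene could share a peak with others. Where several replicate peaks overlapped a pooled one, the one of highest signal was used. Strings were sought within 100 bp of the summit on both strands, in 4 searches, 2 of them added after the sequences were seen. There is 1 group, so no test was made, and shares are given beside those of all protein-coding genes. Genes described in full had a thresholded promoter peak or one within rank 3000; other listed genes are given by rank, and off-window peaks were chosen after their values were seen. The listed genes and the wider list were chosen with earlier results of these data known. Alternatives were other windows, the nearest start, other rank limits, each replicate's own list, other overlap rules and other motif widths. The code was tested on simulated data. Python 3.11.15 and matplotlib 3.10.9 were used.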

Additional observations from a re-analysis of the deposited data

How the results depend on the processing

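The count of listed genes with a thresholded promoter peak, 4, depended on the assignment rule: it was 2 with the narrow window (500 bp before to 100 bp after a start), 0 with the nearest start, and 2 (nrde-2 and rde-2) in the 275 highest peaks, where 1.5% of all genes had one. It was 7 and 11 for the 1000 and 3000 highest pooled peaks, and from 1 to 4 when a single replicate's 550 highest peaks were used, the 1 being mut-15 without replicate 1. For the wider list the count of 4 was 7 with the wide window (2000 bp before to 500 bp after), 2 with the nearest start, 2 in the highest 275 peaks and 13 in the 3000 highest (3.44%, 1.93%, 1.5% and 9.56% of all genes), and 4 without either replicate. Overlap with both replicates, 14 genes, was 13 when 50% of the shorter peak had to overlap and 10 with summits within 100 bp. It fell to 8 when only the 3000 highest peaks of each replicate were kept. No share of all genes is given for these overlap settings. E2F strings were present for 1 gene within 50 bp of the summit, against 3.04% of all best promoter peaks. The count with any pooled promoter peak stayed between 18 and 27 and the median rank between 4248 and 6582.5 under the assignment rules tried. Matching values for all genes under those rules are not given, so these are descriptions only. No paired analysis was possible because the samples form 1 group. Without read counts, a gene with no peak cannot be told apart from one whose signal was too low to be listed.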

Other observations

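A pair of strings, made of TTTGAA, its reverse complement TTCAAA or TTCGAA and then, after 3 bases, TGGCGC, was sought on both strands and found within 100 bp of the best pooled summit of 3 of the 23 genes, rde-2, nrde-2 and hrde-1. In rde-2 and nrde-2 TTTGAA and TGGCGC were on the same strand, and in hrde-1 they were on opposite strands. Of all 7443 best promoter peaks 7 held it (0.094%), as did 4 of the 1461 within rank 3000 (0.274%) and 2 of the 403 thresholded peaks in a promoter window (0.496%). The peaks of rde-2, nrde-2 and hrde-1 are themselves among the 7 and the 4. Those of rde-2 and nrde-2 are the 2 thresholded ones. The pair was picked from the sequences of these genes after they were seen, so the 3 of 23 is a description of how it was found and supports nothing. No test was made of it.

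Among the off-window peaks within rank 3000, hrde-1 had 3 inside the gene, at ranks 567, 1052 and 2571, and prg-1 had 3, at ranks 148, 800 and 1584. The ego-1 locus had a second peak 1093 bp upstream of its start, in a coding exon of F26A3.4, at rank 765 with a pooled signal of 21.3. Its replicate ranks were 444 and 14974.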
